A study of Mus musculus with 6 samples.

Results

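Gpr15, Ccr6, Ccr3 and Cxcr6 encode G protein-coupled receptors that steer leukocytes toward chemical attractants. They are 4 of the 689 gene symbols in the authors' deposited table, chosen by name, and each is represented there by 1 probe, so 4 of the 22749 probes on the array are described. The arrays compared mouse T cells without Irf4 (labelled IRF4 -/-, 3 samples) and with 1 intact allele (IRF4 +/-, 3 samples), both on the C57BL/6J background. Splenic CD4+ CD62L-high CD25-negative naive cells were cultured for 42 h on anti-CD3 with anti-CD28, human TGF-beta (1 ng/ml), IL-23 and IL-6 (20 ng/ml each) and antibodies against interferon gamma and IL-4, which polarize cells toward the Th17 fate. The controls were heterozygous, not wild type, and age, sex and the type of Irf4 allele are not given in the sources used here. All 6 samples are called biological replicates, but whether they came from separate animals or cultures is not given, so the p-values measure only the spread between these samples.

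Chemokine receptors couple to inhibitory G proteins and guide a cell up a gradient of its ligand, and the set of receptors on an activated T cell helps to decide which tissue it enters. GPR15 is a chemoattractant receptor that brings T cells to the colon. CCR6 is the receptor for CCL20 and a surface marker of Th17 cells, used to enter mucosal and inflamed tissue. CCR3 is the eotaxin receptor, best known from eosinophils and basophils, and CXCR6 binds CXCL16 and is carried by activated, tissue-resident and innate-like T cells. IRF4 is a transcription factor that is induced by antigen receptor signalling and is required for Th17 differentiation.

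Each value is the log2 ratio of a sample (Cy5) to 1 common RNA reference pooled from 11 mouse tissues (Cy3), so a value of 0 means equal signal and each unit is a doubling. Irf4 itself had log2 ratios of 0.62, 0.65 and 0.73 in null cells, against 3.02, 2.85 and 2.93 in heterozygous cells. The description of heterozygous replicate 3 writes its genotype as IRF4+-/-, which can be read in more than one way. It was kept as a control because its title and genotype field say so, and its Irf4 value lay between those of the other 2 controls. Without it the log2 fold changes were -3.32 for Gpr15, -2.31 for Ccr6, -1.12 for Ccr3 and 1.58 for Cxcr6, and 0 of the 4 passed limma at an adjusted p under 0.05 (adjusted p of 0.138, 0.298, 0.310 and 0.201). Calls were lost across the whole array: 81 of 22749 probes passed in that fit, against 725 with all 6 samples. Every symbol comes from a table in which the authors kept only probes that differed by more than 2-fold at an unadjusted p below 0.05, so the receptors could be recognised only because they differed between these same samples. Any further probes of these receptors among the 21933 unnamed probes could not be recognised. The median log2 ratio per array was -0.03 to 0.06, and no receptor value was exactly 0. Null replicate 1 stood apart: its log2 ratios correlated across probes at 0.936 and 0.915 with null replicates 2 and 3, which correlated with each other at 0.961. Null replicate 3 correlated more closely with each control (0.930 to 0.937) than with null replicate 1. Null replicate 1 also had the most exact zeros, at 5.28% of probes against 0.67% to 3.77% on the other arrays. The SD of its log2 ratios was the smallest, at 1.61 against 1.68 to 1.83. In bulk RNA, fewer cells carrying a transcript and less of it per cell cannot be told apart.

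The start regions of 3 of the genes are shown because Gpr15 was the receptor past the test's threshold, and because Ccr3 and Cxcr6, neighbours in a cluster of chemokine receptor genes on chromosome 9, differed in opposite directions. Each runs from 250 bases before to 50 after the RefSeq start in GRCm38.p6. They lie at chr16:58718823-58719122 (minus strand) for Gpr15, at chr9:124021721-124022020 (plus strand) for Ccr3 and at chr9:123806227-123806526 (plus strand) for Cxcr6. Capitals mark matches to motifs that IRF4 or its AP-1 partners are known to bind.
Gpr15: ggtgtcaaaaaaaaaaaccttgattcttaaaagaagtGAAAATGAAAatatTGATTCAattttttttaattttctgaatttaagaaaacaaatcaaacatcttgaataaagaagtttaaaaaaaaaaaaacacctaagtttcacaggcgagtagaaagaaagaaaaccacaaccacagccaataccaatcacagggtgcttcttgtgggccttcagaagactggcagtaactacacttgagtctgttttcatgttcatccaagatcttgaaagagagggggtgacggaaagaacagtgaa
Ccr3: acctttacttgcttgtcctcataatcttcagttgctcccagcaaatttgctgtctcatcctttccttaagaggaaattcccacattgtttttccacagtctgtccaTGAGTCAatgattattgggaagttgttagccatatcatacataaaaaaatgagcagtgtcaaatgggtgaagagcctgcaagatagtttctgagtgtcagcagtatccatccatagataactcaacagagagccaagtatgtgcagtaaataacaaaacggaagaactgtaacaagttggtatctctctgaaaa
Cxcr6: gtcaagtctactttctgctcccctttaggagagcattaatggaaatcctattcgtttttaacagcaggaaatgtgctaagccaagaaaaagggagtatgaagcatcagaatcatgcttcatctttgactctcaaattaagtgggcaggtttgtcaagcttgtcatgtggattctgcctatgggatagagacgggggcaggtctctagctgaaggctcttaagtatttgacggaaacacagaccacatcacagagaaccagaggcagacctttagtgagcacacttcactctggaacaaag

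On both strands, 5 motifs were searched. The interferon-stimulated response element was taken as GAAA and GAAA with any 2 bases between, and the ETS-IRF composite element as GGAA and GAAA with any 2 bases between. The AP-1 site was TGANTCA. The AP-1-IRF composite elements, which contain it, were TTTC and TGANTCA with any 4 bases between, and GAAA directly before TGANTCA. The Gpr15 window held GAAAATGAAA at -213 to -204 and TGATTCA at -199 to -193 from the start. The Ccr3 window held TGAGTCA at -144 to -138. Of 32851 RefSeq windows of the same length, 3.44% held the interferon-stimulated response element and 7.81% the AP-1 site. No match to the 5 motifs was found in the Cxcr6 window or in the pair of Ccr6 windows on chromosome 17. These are matches of letters in short windows and say nothing of binding.

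Gpr15 fell in cells without Irf4. In null replicates 1, 2 and 3 its log2 ratios were 1.20, 1.95 and 2.07, against 4.06, 6.07 and 4.29 in the heterozygous replicates. The groups did not overlap, and heterozygous replicate 2 lay well above the other 2 controls. The means were 1.74 ± 0.47 in null and 4.81 ± 1.10 in heterozygous cells (SD, n = 3 each), which is 8.37-fold lower in null cells (95% confidence interval 3.21 to 21.8). Its log2 fold change of -3.06 (SE 0.57) had a limma Benjamini-Hochberg adjusted p of 0.0493 over all probes, just inside the threshold of 0.05. Only 32 of the 22749 probes had a more negative log2 fold change. Without heterozygous replicate 2 the log2 fold change was -2.43, a 5.40-fold difference, with a limma adjusted p of 0.0453. Without any 1 of the other 5 samples the adjusted p was 0.0884 to 0.152, and the call was lost. With all 6 samples and the same fold change, it was also lost with the replicate number as a block (adjusted p = 0.093), with the test named in the study's methods (0.109), with probes of a gene averaged (0.0558), with trend and robust variances (0.0511) and with exact zeros treated as missing (0.0506). Averaging could join only named probes, which the authors had selected for change. It left the values of the 1 Gpr15 probe as they were, while the probes past the threshold went from 725 to 551.

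Ccr6 was lower in every null sample, but by very different amounts. In null replicates 1, 2 and 3 its log2 ratios were 1.24, 2.77 and 3.90, against 4.96, 4.93 and 5.37 in the heterozygous replicates. The heterozygous samples lay within 0.44 of each other, while the null samples spread over 2.66 and left a gap of 1.04 to the lowest control. The means were 2.63 ± 1.34 in null and 5.09 ± 0.25 in heterozygous cells (SD, n = 3 each), a 5.48-fold lower mean in null cells (95% confidence interval 1.86 to 16.2). The log2 fold change was -2.45 (SE 0.64), and the limma adjusted p of 0.109 did not pass. The size turned on the null samples: without null replicate 1 the log2 fold change was -1.75 (adjusted p = 0.105), and without null replicate 3 it was -3.09 (adjusted p = 0.0572). In null replicate 3, Ccr6 lay far above the pooled reference, as it did in the controls.

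Ccr3 values were lower in every null sample. In null replicates 1, 2 and 3 they were 0.72, 1.15 and 0.90 on the log2 scale, against 2.64, 1.45 and 2.39 in the heterozygous replicates. Heterozygous replicate 2 came within 0.30 of the highest null sample, while the other 2 controls lay clearly above it. The means were 0.92 ± 0.22 in null and 2.16 ± 0.63 in heterozygous cells (SD, n = 3 each), a 2.36-fold lower mean in null cells (95% confidence interval 1.35 to 4.10). The log2 fold change of -1.24 (SE 0.33) did not pass, with a limma adjusted p of 0.112. Without heterozygous replicate 2 it was -1.59 and did pass, with a limma adjusted p of 0.0415. With that sample in place, leaving out any other gave adjusted p-values of 0.154 to 0.310.

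Cxcr6 was the 1 receptor of the 4 with a higher mean in null cells. Log2 ratios in null replicates 1, 2 and 3 were 7.84, 7.28 and 7.20, against 6.40, 5.31 and 5.88 in the heterozygous replicates. It lay far above the reference pool in all 6 samples, and the lowest null sample exceeded the highest control by 0.79. The means were 7.44 ± 0.35 in null and 5.87 ± 0.55 in heterozygous cells (SD, n = 3 each), a 2.98-fold higher mean in null cells (95% confidence interval 1.73 to 5.10). The log2 fold change of 1.57 (SE 0.32) had a limma adjusted p of 0.0633 and did not pass, nor did it pass with any sample left out.

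**Figure D1:**
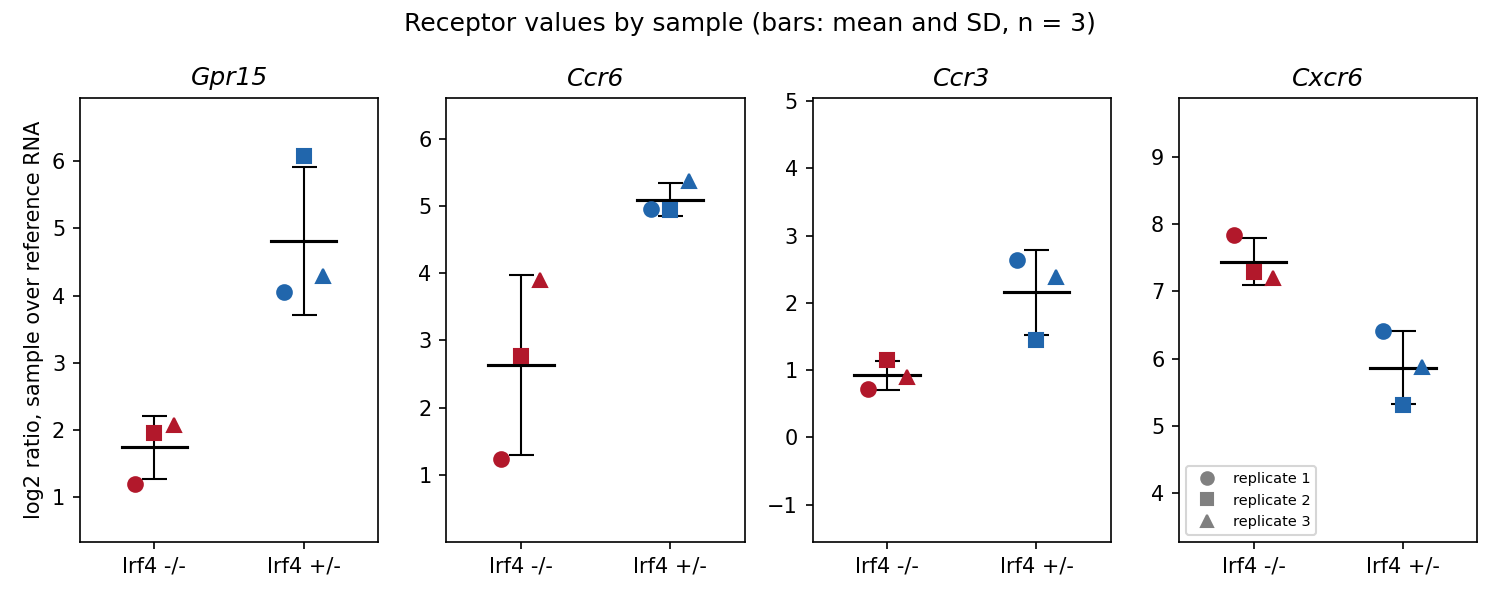
Log2 ratio of sample to reference RNA (y axis, same span in each panel) for each receptor in Irf4 -/- cells (red) and Irf4 +/- cells (blue), with symbols for replicates 1 to 3 and bars for mean and SD (n = 3). The null samples lie below the heterozygous samples for Gpr15, Ccr6 and Ccr3 and above them for Cxcr6, with no overlap in any panel.

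Across the 4 probes, 1 passed the limma adjusted threshold, against 3.19% of all 22749 probes. By direction, 1.56% of all probes passed as lower and 1.63% as higher. Among the 828 probes of the authors' deposited table, from which all 4 receptors come, 58.5% passed. All 4 receptors had non-overlapping groups, as did 30.2% of all probes and 100% of the listed ones, so that count follows from the authors' selection. The same holds for the unadjusted limma p under 0.05, which all 4 reached, as did 20.8% of all probes. A two-sided exact permutation test of each receptor's 6 values gave p = 0.1, the smallest that 3 samples against 3 allow.

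The receptors differed in how tightly the replicates held together. The pooled within-group SD was 0.85 for Gpr15 and 0.96 for Ccr6 on the log2 scale, above those of 97.6% and 99.3% of the listed probes. For Ccr3 and Cxcr6 it was 0.47 and 0.46, above 75.4% and 72.3% of them. The spread of Gpr15, Ccr3 and Cxcr6 was wider among heterozygous samples, and that of Ccr6 was wider among null samples. For comparison, the pooled SD of Irf4 was 0.07.

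**Figure D2:**
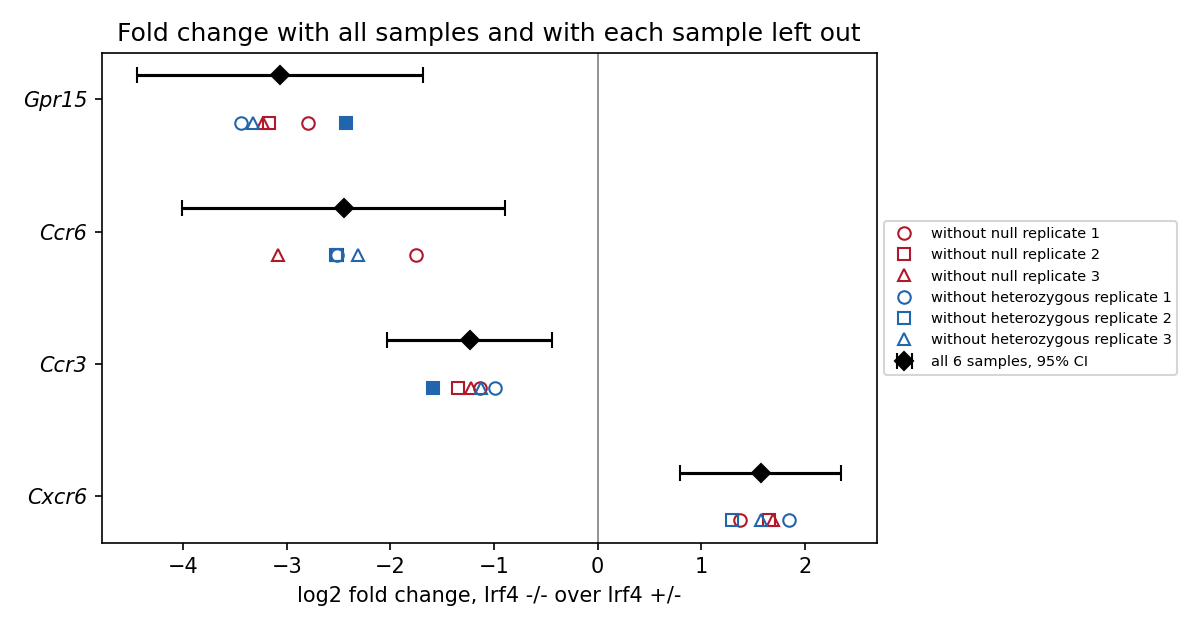
Log2 fold change of Irf4 -/- over Irf4 +/- cells (x axis) for each receptor, as a black diamond with its 95% confidence interval from all 6 samples and, below it, the value with each sample left out (filled where the limma adjusted p was under 0.05). The filled squares at -2.43 for Gpr15 and -1.59 for Ccr3 are both fits without heterozygous replicate 2.

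The same null sample was the most extreme for all 4 receptors. Relative to the heterozygous mean, null replicate 1 lay at -3.60 for Gpr15, -3.85 for Ccr6, -1.44 for Ccr3 and 1.97 for Cxcr6, farther out than the other 2 null samples each time. Null replicate 3 was the closest null sample for Gpr15, Ccr6 and Cxcr6, at -2.74, -1.19 and 1.33. Among all 828 listed probes, null replicate 1 was farthest from the heterozygous mean for 53.1% and null replicate 3 was closest for 47.9%. The order of the 6 samples by Cxcr6 was the exact reverse of their order by Gpr15: null replicates 1, 2 and 3, then heterozygous replicates 1, 3 and 2. Heterozygous replicate 2 was the control with the most Gpr15 and the least Cxcr6 and Ccr3. What sets these samples apart was not tested.

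**Figure D3:**
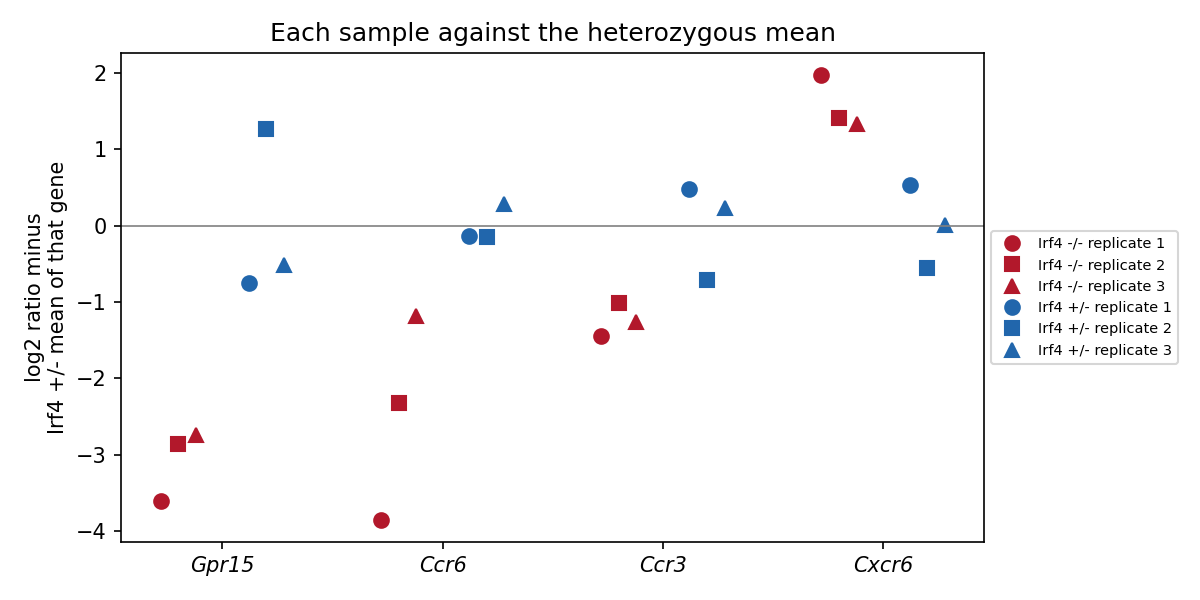
Log2 ratio of each sample minus the mean of the 3 Irf4 +/- samples (y axis) for the 4 receptors, with Irf4 -/- samples in red and Irf4 +/- samples in blue. Null replicate 1 is the farthest null sample from 0 for each receptor, and heterozygous replicate 2 lies at 1.27 for Gpr15 and -0.71 for Ccr3.

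Named trafficking genes, these receptors included, had lower means in null cells in 8 of 10 cases, as did 427 of the 828 listed probes and 12452 of all 22749. Without the 4 receptors, 5 of 6 were lower. The lists held 72 genes for chemokine receptors, other leukocyte attractant receptors and homing adhesion molecules, of which these 10 had a named probe. With the probe of lowest adjusted p for each gene, 4 of the 10 fell, 1 rose and 5 missed the threshold. The 5 of 10 past it are no larger a share than the 58.5% of listed probes (3.19% of all probes), so the count says nothing particular about trafficking genes. The median log2 fold change was -1.45, against -0.05 over all probes and -1.01 over the listed ones. All 10 had been selected by the authors for change of more than 2-fold, so a median well away from 0 is in part built in. Of the 24 chemokine receptors, Ccr6, Ccr3 and Cxcr6 were the only named ones and 0 passed the limma threshold, though all 3 had an unadjusted p under 0.05. The levels of Ccr9 and of the integrin chains Itga4 and Itgb7, the classical receptors for entry into the small intestine, are not known, since no probe was named for them.

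Among the other attractant receptors, 3 of the 4 named genes fell and 1 did not pass, where 58.5% of listed probes and 3.19% of all probes passed. The 3 include Gpr15 itself and Gpr132, whose null values are all exactly 0. Ltb4r1, which encodes the high-affinity receptor for leukotriene B4, had log2 ratios of 0.47, 0.85 and 0.95 in null cells and 4.47, 4.40 and 4.91 in heterozygous cells. It fell 14.3-fold with a limma adjusted p of 0.00217 and passed whichever of the 6 samples was left out, whereas Gpr15, which fell 8.37-fold, passed in 1 of those 6 fits. Gpr132, a lipid-sensing receptor of lymphocytes and macrophages, was listed at exactly 0 in all 3 null samples and at 2.35, 2.43 and 1.81 in heterozygous cells (limma adjusted p = 0.00736). An exact 0 can stand for a failed measurement, so no fold is given for it, and with zeros as missing it could not be tested. Gpr55, a lipid receptor, had a log2 fold change of -1.58 (adjusted p = 0.1001).

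Among 27 adhesion molecules and enzymes of selectin ligand synthesis, 3 were named. Gcnt1, a glycosyltransferase that builds the core of P-selectin ligands, had 3 listed probes with log2 fold changes of -1.01, -1.18 and -1.38, of which the first passed (limma adjusted p = 0.045) and the others had adjusted p-values of 0.0799 and 0.0556. Alcam, the ligand of CD6, rose 2.37-fold with a limma adjusted p of 0.0312. Itgax, an integrin chain best known from dendritic cells, had a log2 fold change of -1.32 (adjusted p = 0.116). Each of Alcam and the Gcnt1 probe past the threshold passed in 1 of the 6 leave-one-out fits.

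**Figure D4:**
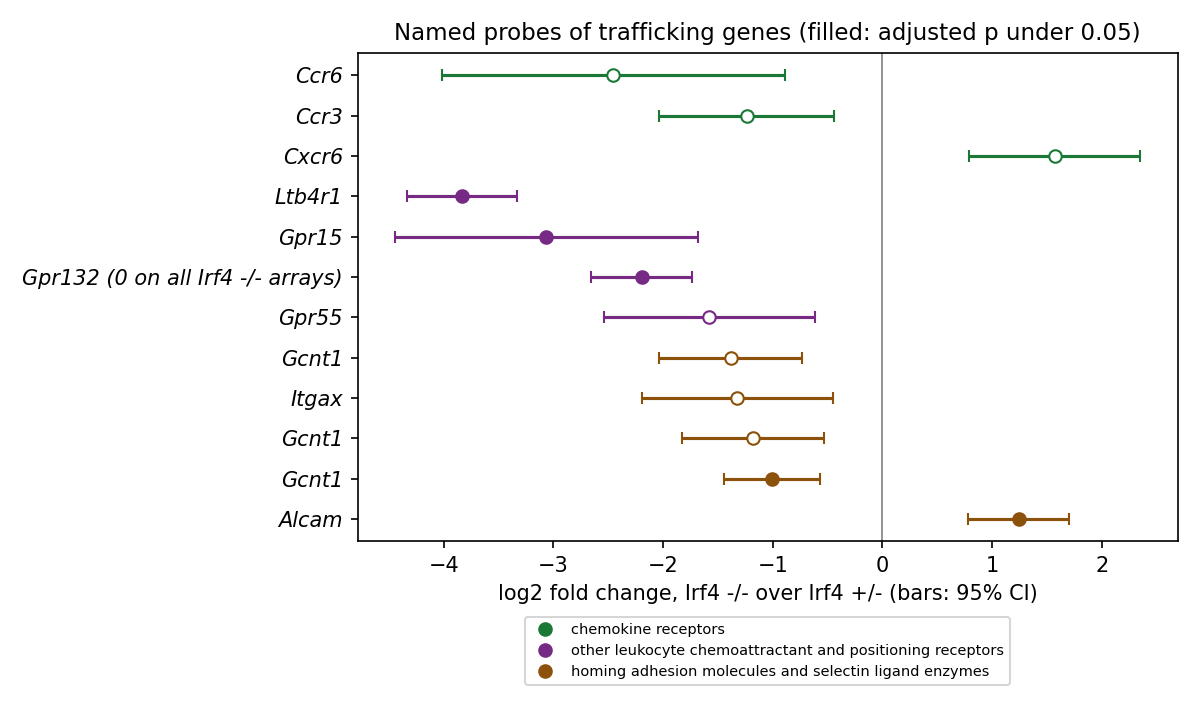
Log2 fold change of Irf4 -/- over Irf4 +/- cells with its 95% confidence interval (x axis) for every named probe in the 3 lists of receptors and adhesion genes, filled where the limma adjusted p was under 0.05. Gpr132, at exactly 0 on each null array, is marked, and Cxcr6 and Alcam are the 2 genes to the right of 0.

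Of 15 genes for ligands of the 4 receptors, 1 was named. Ccl9, a CC chemokine better known as a ligand of CCR1, had a log2 fold change of 1.33 with an adjusted p of 0.122. No probe was named for Ccl20, Cxcl16 or the eotaxins, nor for any of 24 regulators of G protein signalling and chemotaxis. Of 22 genes of the Th17 programme, 14 were named: 10 fell, 0 rose and 4 did not pass by limma, and Ccr6 was among those that did not. No probe was named for Il17a, Il17f, Rora, Ahr, Batf, Maf or Stat3, so the levels of these members are not known. The list was drawn up with earlier results of these data known, and all 14 named genes were selected by the authors for change. Of the 828 listed probes 231 passed as lower and 58.5% in either direction, against 1.56% and 3.19% of all probes. The 1 positive value was that of the IL-1 receptor gene Il1r1, with a log2 fold change of 1.09 (adjusted p = 0.0623). Over the 13 named members other than Ccr6, the mean log2 ratio per array was 1.25 to 1.92 in null cells and 4.26 to 4.74 in heterozygous cells. It used the probe of lowest adjusted p for each gene, all selected for a difference between these groups, so the gap is in part built in.

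Markers of other cells that carry these receptors were checked as far as probes were named. For eosinophils, basophils and mast cells, which express Ccr3, Ccr3 was the only named gene of 21, so their part in its value was not tested. For B cells, which express Ccr6, 4 of 13 were named. Of the other 3, Cd24a and Fcrl1 fell and Sdc1 rose, and their mean log2 ratio per array was -1.74 to -1.38 in null and -0.06 to 0.56 in heterozygous cells. The Fcrl1 probe used was exactly 0 in null replicate 1. The other listed probe of Fcrl1 held no exact 0 and had a log2 fold change of -3.13 (limma adjusted p = 0.00682). Every named marker had been selected for a difference between these groups, so a gap in such a mean is in part built in. For CD8, NK and innate T cells, which express Cxcr6, 6 of 17 were named. Of the 5 other than Cxcr6, 4 were higher in every null sample than in any control. That separation follows from the authors' selection: 100% of the 828 listed probes had non-overlapping groups (30.2% of all probes), and 401 were higher in null cells. Nkg7, a cytotoxic granule protein, had log2 fold changes of 2.83 and 1.79 at its 2 probes, of which the first passed (limma adjusted p of 0.0189 and 0.0816). Values were 2.36 for the pore-forming protein gene Prf1, 1.41 for the transcription factor gene Eomes and 1.29 for the CD8 chain gene Cd8a, which did not pass (adjusted p of 0.113, 0.123 and 0.136). Klre1, an NK cell receptor gene, fell, with a log2 fold change of -3.57 (limma adjusted p = 0.0333), and passed in 1 of the 6 leave-one-out fits. Its value was exactly 0 in null replicate 2, and that of Eomes was exactly 0 in heterozygous replicate 3. Such a 0 can stand for a failed measurement. The mean log2 ratio per array of these 5 was 3.00 to 3.78 in null and 1.98 to 3.26 in heterozygous cells, and these ranges overlapped with Klre1 in the mean. For dendritic and myeloid cells 2 of 18 were named, and Cd86 fell while Itgax did not pass. The part of any of these other cells in the receptor values was not tested. The labelled T cell identity could not be checked on CD4 or CD3 chain genes other than Cd247. Cd247 had a log2 fold change of -2.28 (adjusted p = 0.0926). Of the other 2 named genes, Gata3 rose 2.84-fold (limma adjusted p = 0.0100) and Cd28 had a log2 fold change of -1.23 (adjusted p = 0.139). Values of exactly 0 were listed for Cd247 in null replicate 2 and for Cd28 in null replicates 1 and 3.

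The named genes most like each receptor were taken by Pearson's r over the 6 arrays, among 815 other named probes that had all been selected on the same samples. Closest to Gpr15 were Serpinb1a (r = 0.998), Susd3 (0.993) and Serpinb1b (0.992). Closest to Ccr6 were Fes (0.992), Arhgef2 (0.988) and Espn (0.987). Closest to Ccr3 were Gcnt1 (0.994), Map3k20 (0.994) and Galnt12 (0.980), and closest to Cxcr6 were Ppic (0.992), Tor3a (0.992) and Rai14 (0.987). Of these 12 probes, that of Rai14 passed the limma threshold, with an adjusted p of 0.0312, where 58.5% of listed probes and 3.19% of all probes passed. Further listed probes of Espn, Susd3, Gcnt1 and Rai14 passed as well (limma adjusted p of 0.0255, 0.0467, 0.0450 and 0.0413). Serpinb1b had a second listed probe that went the other way, with a log2 fold change of 1.71 (adjusted p = 0.0570). All of these probes were selected for a difference between the same 2 groups, so the correlations are a description only.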

How the data were processed

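RNA from 3 Irf4 null and 3 heterozygous samples was hybridised with a common reference on 2-colour arrays without dye swap, per the labels. Agilent Feature Extraction 10.7 and Partek are named in the submitters' processing notes. The deposited log2 ratios, called normalized per the file headers, were used unchanged. The authors' deposited table gives p-values and signed fold changes (a score column whose falls are negative) from a 1-way ANOVA in Partek Genomic Suite 6.6, per the file headers. Base and direction were settled by differences of group means, which matched the log2 of the deposited fold changes within 1.03e-05 for 828 probes.

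All 22749 probes were compared with limma 3.58.1 (lmFit, eBayes; R 4.3.3) without covariates, with Benjamini-Hochberg adjustment and a threshold of 0.05. Fold changes are null over heterozygous. The fit was tested on simulated data with large planted changes and a spread that was typically smaller than that of the receptors. That checked the code, not the power to call the receptors. Intensities, background flags and scan batches were not used here, so dim probes could not be filtered, and the number of arrays limits precision.

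The receptors, 11 gene lists (211 genes, 35 named) and tests were chosen with earlier results of these data known. Named in the text were the receptors, Irf4, up to 5 named members per list and the 3 genes most like each receptor; other genes were chosen after their values were seen. Old symbols were updated through RefSeq synonyms (GRCm38.p6), giving 688 named genes. Start regions are RefSeq sequences, with 5 windows for the 4 genes. Same-numbered samples deviated with correlations of 0.097, -0.013 and -0.037, so the numbers were not taken to pair samples. The alternatives tried were a replicate block, centring, quantile normalization, scaling, zeros as missing, trend and robust variances, the methods' t-test, a threshold of 0.1, averaged probes, a variance filter and leaving out each sample.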

Additional observations from a re-analysis of the deposited data

How the results depend on the processing

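Centring, scaling and quantile normalization were the only 3 of the 16 alternatives that could turn the sign of Gpr15, Ccr6, Ccr3 or Cxcr6, and they did not: the others keep the fold change by construction or drop 1 sample from groups that do not overlap. The call of Gpr15 depends on the setting. Its log2 fold change of -3.06 was no longer past the threshold with the replicate block (limma adjusted p = 0.093), the methods' t-test (adjusted p = 0.109), averaged probes (0.0558), trend and robust variances (0.0511) or zeros as missing (0.0506), and each of these left 0 receptor probes past it. Averaging joined only named probes and left the Gpr15 values unchanged. Fits without 1 sample gave log2 fold changes of -3.44 to -2.43 for Gpr15, -3.09 to -1.75 for Ccr6, -1.59 to -1.0 for Ccr3 and 1.30 to 1.84 for Cxcr6, with 0 to 2 receptor probes past the threshold. With zeros as missing, Gpr132 could not be tested. At an adjusted p under 0.1, Cxcr6 (1.57) passed as well, which made 2. Scaling and quantile normalization raised the adjusted p of Cxcr6 to 0.164 and 0.134. Of all probes, 725 passed, against 76 with the replicate block, 1535 at 0.1, 481 without the least variable 25% and 70 to 398 without 1 sample. The cause of these shifts was not tested. Where samples or probes were left out, fewer entered the fit.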

Other observations

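The genes around the receptors could be followed only where a probe was named. Between Cxcr6 and Ccr3 in the RefSeq order of chromosome 9 lie Xcr1, Ccr1 and Ccr1l1, none of which was named. Among the 6 protein-coding genes on each side of each receptor, the only named gene besides Cxcr6 and Ccr3 was St3gal6, which lies 4 genes from Gpr15 and was singled out after its values were seen. It encodes a sialyltransferase that contributes to selectin ligands. Its log2 ratios were 0.61, 0.75 and 0.27 in null cells, against -0.67, -0.61 and -1.0 in heterozygous cells, so the groups did not overlap. It rose 2.47-fold (limma adjusted p = 0.0255), the opposite direction to Gpr15, and passed in 1 of the 6 leave-one-out fits.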
